A study of Mus musculus with 16 samples.

Results

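Cerebellar RNA of adult Upf3b-null mice (Upf3b-KO) and their control littermates (Ctrl) was compared in 7 of the 16 libraries of the study. These were Ctrl libraries 1 to 4 and Upf3b-KO libraries 2, 3 and 4, which were chosen by depth, with 27660078 to 35238677 counts each. Upf3b-KO library 1 held 64981 counts and was left out, and the other 8 libraries of the study came from frontal cortex. The only difference named between the groups is the Upf3b genotype. How the allele was made, the strain, the sex, the exact age and what the dissection of the cerebellum included are not given in the sources used here. The study counts 4 mice per genotype, but the labels do not tie a library to an animal, so p-values measure only the spread between these libraries, which may be technical.

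Upf3b encodes an adaptor protein of nonsense-mediated RNA decay (NMD), in which messenger RNAs on which the ribosome stops too early are broken down. After splicing, a protein complex stays on the RNA near each exon junction, and UPF3B is one of the proteins that link this exon junction complex to the decay factors UPF1 and UPF2. A stop codon that lies well upstream of an exon junction is therefore a classical mark of an NMD target, called a downstream exon junction (dEJ). The cerebellar cortex consists mostly of granule cells, which are small glutamatergic neurons, together with Purkinje cells, which are its output neurons, inhibitory interneurons and Bergmann glia. Beneath it lie the white matter and the cerebellar nuclei, and the brainstem and the choroid plexus of the fourth ventricle border on it.

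Levels are given as counts per 1000000 counts of the library (CPM), and a log2 fold change is the fitted Upf3b-KO to Ctrl difference with libraries scaled by TMM, the trimmed mean of M values. A gene or transcript was called changed, and is said to rise or fall, at an adjusted p under 0.01 and a change of over 2-fold in edgeR's quasi-likelihood test. Libraries of a genotype were very close to each other. Among genes at 100 to 1000 CPM, the median coefficient of variation was 1.91% over the 4 Ctrl libraries and 1.56% over the 3 Upf3b-KO libraries, where counting alone gives 1.37% and 1.36%. No pair of libraries was the same library deposited again, since their counts differed by 2.71 to 3.66 times the sampling noise (chi-square per degree of freedom). All 7 libraries held the Y-linked gene Ddx3y at 126 to 136 CPM, and the X-inactivation RNA Xist reached at most 0.141 CPM. The forebrain regulator Emx1 did not exceed 0.0851 CPM in any of the 7.

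Upf3b itself (X chromosome of GRCm39, 36355174 to 36374019, minus strand) was measured first, since it checks the genotype labels. Its level was 23.1, 23.6, 20.9 and 23.1 CPM in Ctrl and 0.628, 0.965 and 0.617 CPM in Upf3b-KO, so the genotypes did not overlap. The log2 fold change was −4.97 (SE 0.13, adjusted p 7.67e-17 by edgeR's quasi-likelihood test), and 3.25% of the Ctrl level remained. Most of the signal belonged to the coding transcript Upf3b-201, at 16.9 to 20.8 CPM in Ctrl and 0.289 to 0.965 CPM in Upf3b-KO. The library left out had 0 Upf3b counts, but 3 counts there already equal 46.2 CPM, and a level as in Ctrl would also have given few counts or none.

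Of 17785 genes tested, 1831 rose (10.3%) and 508 fell (2.86%) in Upf3b-KO cerebellum. The genes that rose were mostly low ones. Their median level was 0.513 CPM in Ctrl and 2.87 CPM in Upf3b-KO, and 45 of them had 0 counts in all 4 Ctrl libraries. Genes that fell had a median of 4.01 CPM in Ctrl and 1.45 CPM in Upf3b-KO, and 11 of them had 0 counts in every Upf3b-KO library. Among the 2332 genes that averaged 100 CPM or more the balance was different, with 37 that rose and 47 that fell. The filter on low counts keeps a gene that is high in a single genotype, so genes near 0 in the other were bound to differ. With the fold limit dropped, 9820 genes (55.2%) passed an adjusted p under 0.01 in edgeR's test, 5060 higher and 4760 lower, which rests on the small spread between libraries. The first principal component separated the genotypes and held 80.7% of the variance.

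**Figure D1:**
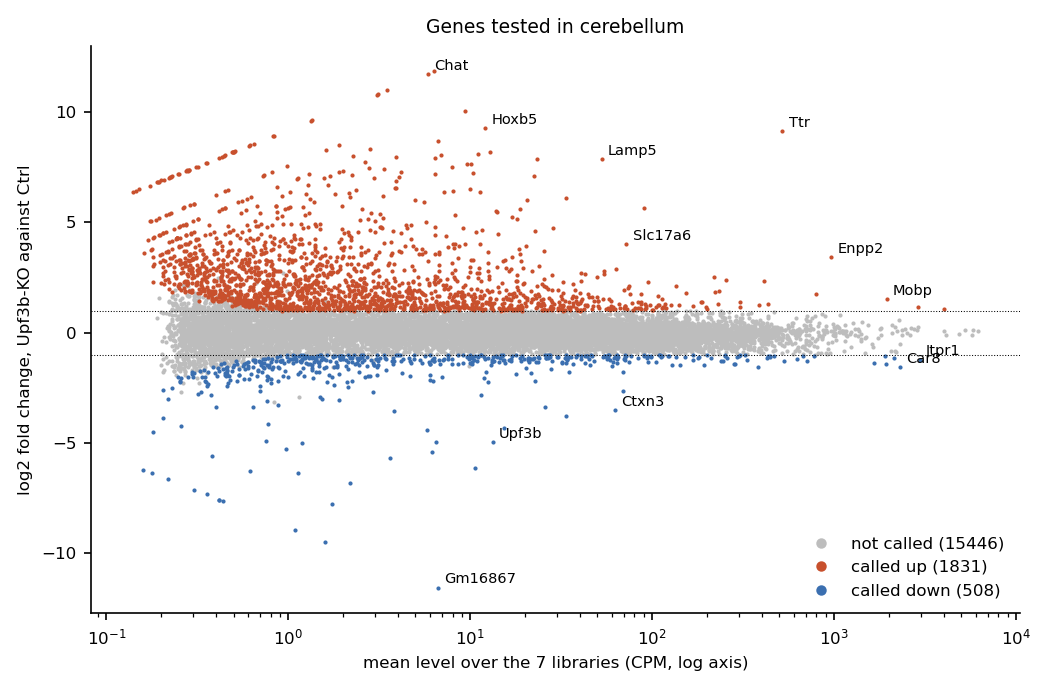
Log2 fold change of each tested gene (vertical axis) against its mean level over the 7 libraries (horizontal axis, CPM on a log scale), with genes that rose in red, genes that fell in blue and the others in grey; dotted lines mark a 2-fold change. The 1831 genes that rose lie mostly at low levels, whereas Ttr, Enpp2 and the myelin gene Mobp rose at high levels and Car8 and Itpr1 fell at high levels.

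Genes of Purkinje cells were prominent among the abundant genes that fell. Car8 (chromosome 4, 8141533 to 8239088), whose product binds the inositol trisphosphate receptor, stood at 3172, 3235, 3193 and 3192 CPM in Ctrl and at 1118, 1109 and 1119 CPM in Upf3b-KO. Its log2 fold change was −1.57 (SE 0.011, adjusted p 4.72e-25 by edgeR's quasi-likelihood test). That receptor gene, Itpr1 (chromosome 6, 108190048 to 108528070), stood at 3889, 3885, 3906 and 3893 CPM in Ctrl and at 1740, 1726 and 1710 CPM in Upf3b-KO, a log2 fold change of −1.22 (SE 0.0097). For both genes the libraries of a genotype nearly coincided, and every Ctrl library lay far above every Upf3b-KO library.

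Other genes of calcium and glutamate signalling in Purkinje cells fell to a like degree. The calcium buffer gene Calb1 (chromosome 4, 15881155 to 15908085) was at 2601 ± 48 CPM (SD, n = 4) in Ctrl and 1010 ± 7.6 (SD, n = 3) in Upf3b-KO, with a log2 fold change of −1.42 (SE 0.014). Rgs8, a regulator of G protein signalling (chromosome 1, 153528714 to 153576069), was at 2242 ± 7.8 and 886 ± 9.6 CPM, and Ppp1r17, a phosphatase inhibitor found mainly in Purkinje cells (chromosome 6, 55989619 to 56009674), at 527 ± 8.7 and 187 ± 3.2 CPM. The AMPA receptor subunit gene Gria1 (chromosome 11, 56902153 to 57221080) was at 950 ± 10 and 401 ± 3.5 CPM. Log2 fold changes of the last 3 ran from −1.54 to −1.30, with the Upf3b-KO libraries below all Ctrl libraries each time.

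On the list of 18 Purkinje cell genes, all tested, 10 fell, where 2.86% of all genes fell, and none rose, with a median log2 fold change of −1.14, where the median over all tested genes was 0.01. Their summed level was 20169 to 20270 CPM in Ctrl and 10581 to 10622 CPM in Upf3b-KO. The members were not equally affected. Pcp2, a Purkinje cell protein gene, fell from 385 to 147 CPM (means). In contrast, Slc32a1, the vesicular GABA transporter that other inhibitory neurons share, was at 65.2 and 64.2 CPM, and Aldoc, a glycolytic enzyme of Purkinje cell stripes and astrocytes, was at 2273 and 2664 CPM. In bulk tissue, fewer cells of a type and less RNA per cell cannot be told apart.

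Granule cell genes were lower as well. Of the 14 on the list, 6 fell, where 2.86% of all genes fell, and none rose. All 14 were lower at an adjusted p under 0.01 in edgeR's test, as were 4760 of all 17785 genes, and the median log2 fold change was −0.96. Neurod1, a transcription factor of granule neurons, stood at 547, 563, 561 and 552 CPM in Ctrl and 256, 252 and 258 CPM in Upf3b-KO. The granule cell GABA-A receptor subunit gene Gabra6 was at 747 ± 7.2 CPM (SD, n = 4) and 389 ± 4.4 (SD, n = 3), a log2 fold change of −0.99 that just missed the 2-fold limit. Summed over the list, the level was 6028 to 6049 CPM in Ctrl and 3328 to 3356 CPM in Upf3b-KO.

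Glia of the cerebellar cortex gave a mixed picture. Slc1a3 (chromosome 15, 8663604 to 8741595), the glutamate transporter of Bergmann glia, stood at 2739, 2754, 2776 and 2752 CPM in Ctrl and 1302, 1303 and 1285 CPM in Upf3b-KO, a log2 fold change of −1.14 (SE 0.011). Gdf10, a growth factor made by Bergmann glia, fell from 263 to 97.3 CPM (means). They were the only members of the list of 16 Bergmann glia and astrocyte genes that fell, where 2.86% of all genes fell, and none rose. At an adjusted p under 0.01 in edgeR's test 11 of the 16 were lower and 4 higher. Over all 17785 genes, 4760 were lower and 5060 higher. Among the 11 were Hopx at 264 and 154 CPM and A2m at 167 and 104.7 CPM. The sum of the list was 6524 ± 20 CPM (SD, n = 4) in Ctrl and 4807 ± 21 (SD, n = 3) in Upf3b-KO. The general astrocyte genes Aqp4 (650 and 614 CPM) and Gja1 (520 and 509 CPM) differed by little, and Fgfr3 was at 96.4 and 184 CPM.

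A few genes outside these lists also fell among the most clearly changed. Zbtb18, a transcriptional repressor of the nervous system (chromosome 1, 177269917 to 177278330), was at 999 ± 7.1 CPM (SD, n = 4) in Ctrl and 490 ± 1.3 (SD, n = 3) in Upf3b-KO. Ctxn3, a cortexin family gene (chromosome 18, 57600675 to 57611207), stood at 104, 103, 103 and 99.5 CPM in Ctrl and at 8.52, 9.76 and 9.19 CPM in Upf3b-KO. Its log2 fold change of −3.53 (SE 0.045, adjusted p 2.54e-21 by edgeR's quasi-likelihood test) was well beyond that of any marker of Purkinje or granule cells on the lists.

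Genes of the choroid plexus, the epithelium that makes cerebrospinal fluid, were higher in Upf3b-KO, from Ctrl levels that differed widely between members. Ttr (chromosome 18, 20797253 to 20807467), which encodes the thyroid hormone carrier transthyretin, stood at 1.97, 2.06, 2.31 and 1.88 CPM in Ctrl and at 1215, 1215 and 1198 CPM in Upf3b-KO. The log2 fold change was 9.15 (SE 0.029, adjusted p 1.11e-30 by edgeR's quasi-likelihood test). Enpp2 (chromosome 15, 54701324 to 54816288), the enzyme autotaxin, which oligodendrocytes also make, stood at 179, 178, 179 and 180 CPM in Ctrl and at 1998, 2020 and 2027 CPM in Upf3b-KO. No Upf3b-KO value came near a Ctrl value for either gene.

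Of the 16 choroid plexus genes on the list, 15 rose and none fell, with a median log2 fold change of 4.61, against 10.3% of all tested genes that rose. Kl, the klotho gene, was at 1.08 ± 0.091 CPM (SD, n = 4) in Ctrl and 77.0 ± 2.2 (SD, n = 3) in Upf3b-KO. The Wnt and BMP antagonist gene Sostdc1 and the potassium channel subunit gene Kcne2 were at 0.091 and 0.111 CPM in Ctrl and at 25.7 and 23.5 CPM in Upf3b-KO. Otx2, a homeobox gene that granule cells also express, was the member that was not called, at 6.56 and 10.1 CPM. The summed level of the list was 215.5 to 217.4 CPM in the Ctrl libraries and 3536 to 3553 CPM in the Upf3b-KO libraries, so libraries of a genotype held nearly the same amount.

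Genes of neurons outside the cerebellar cortex rose together. The list of cerebellar nuclei, brainstem and midbrain neurons had 24 genes, of which 22 passed the filter on low counts, and 19 rose, where 10.3% of all genes rose, and none fell. Its summed level was 656 to 675 CPM in Ctrl and 2800 to 2852 CPM in Upf3b-KO. Slc17a6 (chromosome 7, 51271434 to 51320867), the vesicular glutamate transporter of brainstem and nuclear neurons, stood at 9.69, 9.76, 9.28 and 8.71 CPM in Ctrl and at 157, 156 and 155 CPM in Upf3b-KO, a log2 fold change of 4.004 (SE 0.038, adjusted p 3.18e-23 by edgeR's quasi-likelihood test). The members tested that were not called were Th, which makes dopamine and noradrenaline precursors, at 12.0 and 16.8 CPM, Ebf3 at 8.20 and 9.88 CPM and Tcf7l2 at 19.4 and 14.6 CPM. Pou4f2 and Tfap2d did not pass the filter.

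Cholinergic genes were at or near 0 in Ctrl and present in Upf3b-KO. Chat (chromosome 14, 32129369 to 32187946), which makes acetylcholine, had 0 counts in all 4 Ctrl libraries and 13.4, 13.0 and 14.5 CPM in Upf3b-KO, at least 142.5-fold higher when 3 counts per library are taken as the floor. Slc18a3, the vesicular acetylcholine transporter gene, lies inside Chat (chromosome 14, 32184395 to 32186807), also had 0 counts in Ctrl, and reached 14.1, 14.4 and 15.9 CPM, at least 154.7-fold higher. Use of read strand in the counting is not stated, so reads in the shared interval cannot be assigned with certainty. The choline transporter gene Slc5a7, which stands apart from them in the genome, was at 0.145 to 0.323 CPM in Ctrl and 51.6 to 56.4 CPM in Upf3b-KO. Chodl, the chondrolectin gene known from motor neurons (chromosome 16, 78727732 to 78748624), had 2 counts over the 4 Ctrl libraries and reached 19.2, 23.5 and 22.8 CPM, a count ratio of 1391 with a counting interval of 384.5 to 11491.

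Neurofilament genes, which are highest in neurons with thick axons, rose from a substantial Ctrl level. Nefl (chromosome 14, 68321268 to 68326544) stood at 387, 380, 388 and 377 CPM in Ctrl and at 1371, 1355 and 1340 CPM in Upf3b-KO, a log2 fold change of 1.77 (SE 0.014). Nefm (chromosome 14, 68320039 to 68362305) was at 87.8 ± 2.9 CPM (SD, n = 4) and 476 ± 7.5 (SD, n = 3). The annotated intervals of these neighbours overlap, and 32.7% of the sequence of Nefl occurs in Nefm transcripts, so the split between them is uncertain. Their sum was 471 and 1831 CPM. Nefh, on another chromosome, was at 106 and 400 CPM. The inhibitory transporter genes Slc6a11, which takes up GABA (chromosome 6, 114108200 to 114226913), and Slc6a5, which takes up glycine, rose from 69.3 to 415 CPM and from 35.01 to 176 CPM. Lamp5 (chromosome 2, 135894159 to 135911924), a lysosomal membrane protein gene of selected neurons, stood at 0.463, 0.470, 0.297 and 0.795 CPM in Ctrl and 122, 121 and 125 CPM in Upf3b-KO.

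Hox genes, which record position along the hindbrain and spinal cord, were near 0 in Ctrl. Of the 16 on the list 14 passed the filter, and those 14 rose, which follows from the filter once Ctrl is near 0. Hoxb7 and Hoxd8, which did not pass, were at 0.201 and 0.103 CPM in Upf3b-KO. Summed over the 16 genes, the level was 0.231 to 0.542 CPM in Ctrl and 87.1 to 96.1 CPM in Upf3b-KO. Hoxb5 (chromosome 11, 96194162 to 96196947) stood at 0.0289, 0, 0.0660 and 0.0723 CPM in Ctrl and at 28.6, 25.7 and 29.9 CPM in Upf3b-KO. Hoxd3, with 0 Ctrl counts, was at 8.03, 8.33 and 7.93 CPM, at least 84.7-fold higher. The median log2 fold change of the 14 was 8.11, or 7.09 with the 4 genes at 0 in Ctrl set to their lower bound.

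Most neuropeptide genes rose as well. Of 22 on the list, 18 were tested, 13 rose, where 10.3% of all genes rose, and Cck fell from 34.2 to 17.6 CPM. Sst, the somatostatin gene, stood at 0.926, 1.03, 1.02 and 0.904 CPM in Ctrl and 38.1, 38.1 and 38.5 CPM in Upf3b-KO. Tac1, which encodes substance P, rose from 0.202 to 18.6 CPM, and Calca, which encodes calcitonin gene-related peptide, from 0.920 to 11.9 CPM. Vip, Pdyn, Cartpt, Trh, Tac2, Grp, Tac1 and Crh, at 0.0291 to 0.229 CPM in Ctrl, passed the filter on low counts only through Upf3b-KO. The calls of these genes follow from that.

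Myelin genes rose from a high level. Mobp (chromosome 9, 119973770 to 120011273), a myelin protein gene, stood at 1050, 1056, 1059 and 1045 CPM in Ctrl and 3150, 3098 and 3157 CPM in Upf3b-KO, a log2 fold change of 1.52 (SE 0.011, adjusted p 6.78e-25 by edgeR's quasi-likelihood test). The gap between the genotypes was many times the range within either.

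Of 15 oligodendrocyte genes, 11 rose, where 10.3% of all genes rose, and none fell, with a median log2 fold change of 1.16 and a summed level of 6644 to 6750 CPM in Ctrl and 15358 to 15475 CPM in Upf3b-KO. Mbp, myelin basic protein, rose from 2659 to 5818 CPM and Olig2, a lineage transcription factor, from 5.42 to 21.5 CPM. The range over the list was wide, since Cnp was at 508 and 709 CPM. Of 8 precursor genes 4 rose, against the same 10.3%, among them Bcas1 from 109 to 295 CPM, and the precursor receptor gene Pdgfra rose from 22.5 to 47.2 CPM.

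**Figure D2:**
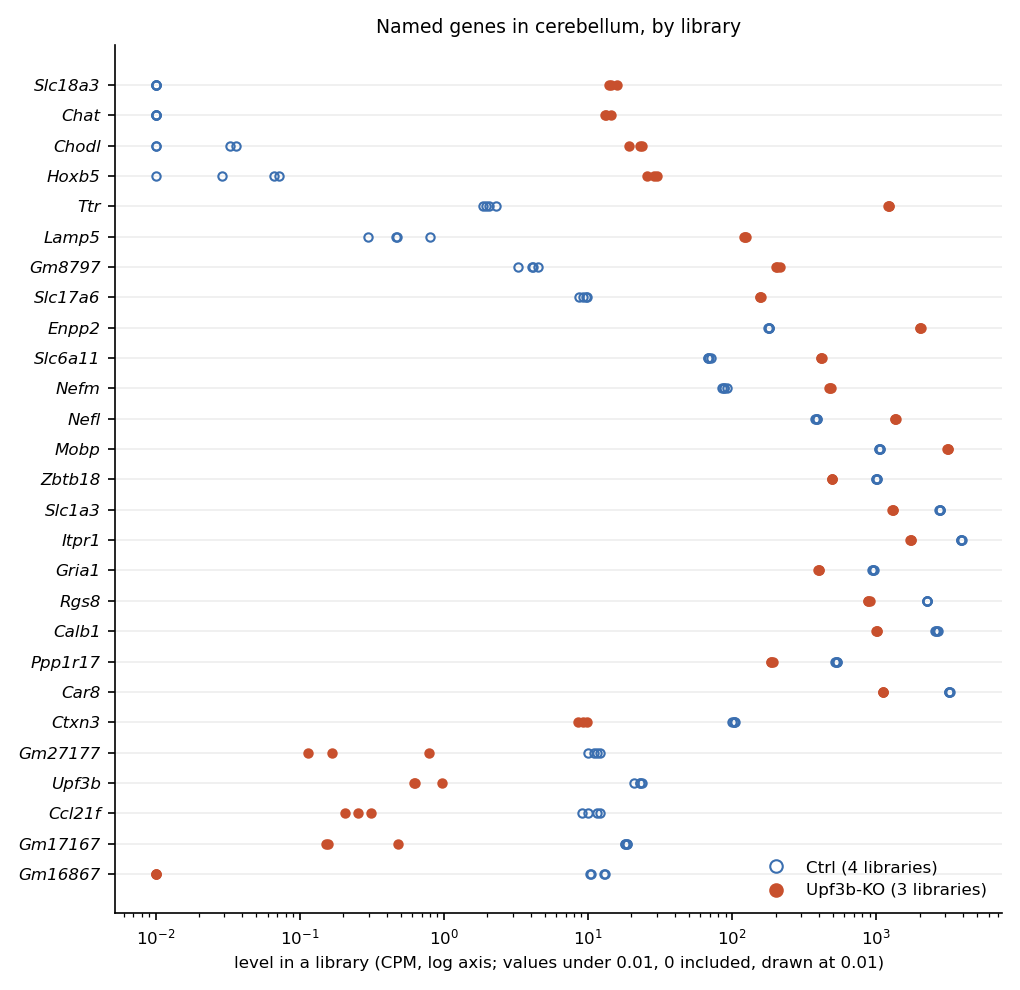
Level of each named gene in each library (CPM on a log axis, values under 0.01 drawn at 0.01), with the 4 Ctrl libraries as open blue circles and the 3 Upf3b-KO libraries as filled red circles. The genotypes do not overlap for any of the 27 genes drawn, and points of a genotype mostly coincide above 10 CPM.

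Other cell types moved less or in part. No microglial gene of 12 was called, but 10 were higher at an adjusted p under 0.01 in edgeR's test, as were 5060 of all 17785 genes, with a median log2 fold change of 0.40 and a sum of 274 to 281 CPM in Ctrl and 366 to 374 CPM in Upf3b-KO. None of 12 endothelial and pericyte genes was called. At that p 5 were higher and 2 lower, where 5060 and 4760 of all 17785 genes were. Of 13 meningeal and fibroblast genes Ogn fell, from 15.4 to 7.36 CPM, where 2.86% of all genes fell. At that p 8 of these 13 were lower and 1 higher, against the same counts of all genes. Their median log2 fold change was −0.51, and their sum was 183 and 141 CPM. Among 16 genes of ependyma and motile cilia 11 rose, where 10.3% of all genes rose, such as Rsph1, a radial spoke gene, from 1.22 to 6.08 CPM, although the master regulator of motile cilia Foxj1 was at 5.94 and 9.10 CPM. Dnah6, a dynein gene and the highest member in Ctrl, was at 18.6 and 11.2 CPM and Hydin at 3.17 and 1.98 CPM. Of 12 genes of other cerebellar interneurons, 11 of them tested, Slc6a5 and the roof plate and unipolar brush cell gene Lmx1a rose and Calb2 fell, where 10.3% of all genes rose and 2.86% fell. Of these 11, 6 were lower and 4 higher at that p, where 4760 and 5060 of all 17785 genes were. Kit, among the lower, was at 563 and 326 CPM, and the sum of the list was 1465 and 1098 CPM. None of 7 red cell genes was called, and the 4 haemoglobin genes were higher by 0.76 to 0.95 on the log2 scale, with 187.9 and 368 CPM for Hba-a1. The sums of the choroid plexus, oligodendrocyte, brainstem neuron and red cell lists moved with genotype in every library, and their part in the other differences was not tested.

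**Figure D3:**
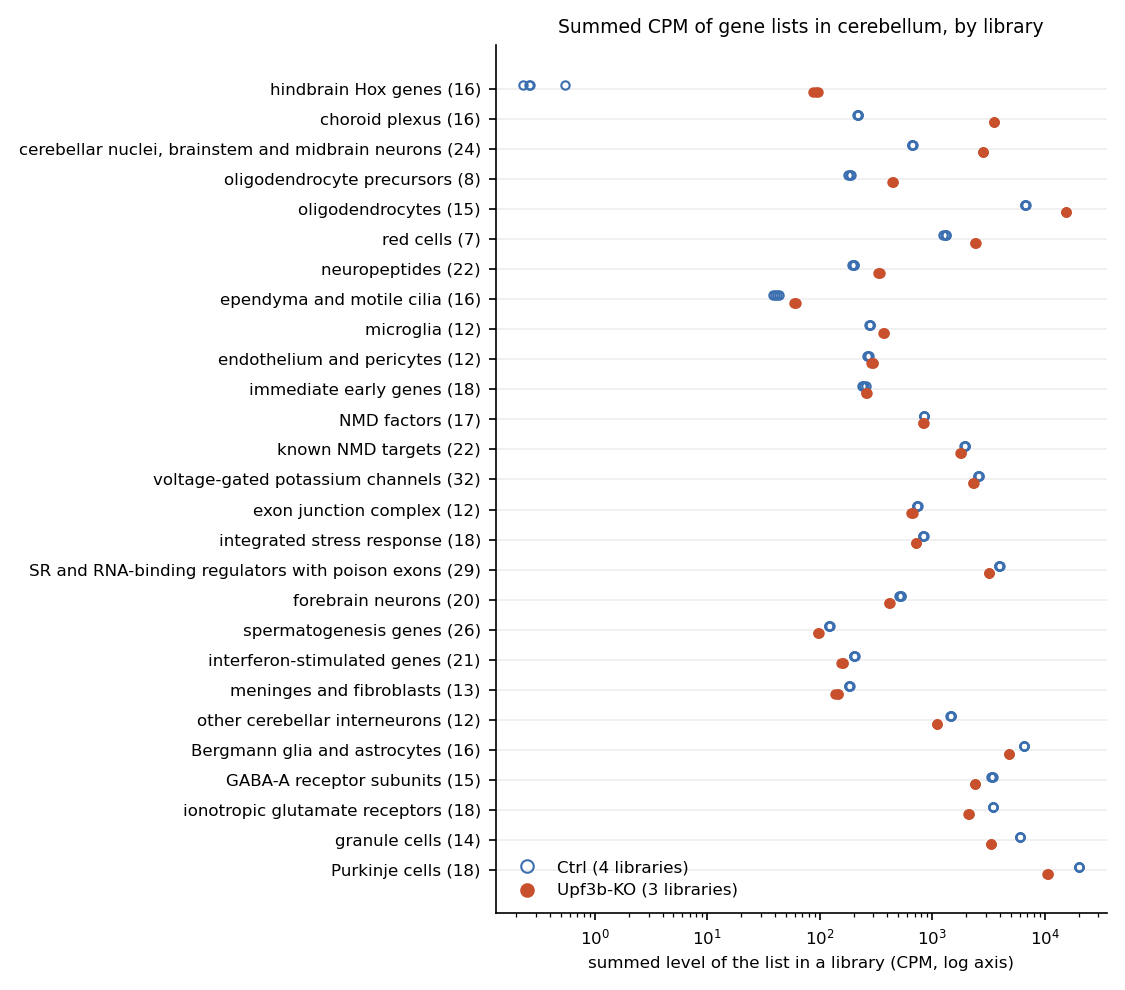
Summed level of each gene list in each library (CPM on a log axis), with the number of genes in brackets, open blue circles for the 4 Ctrl libraries and filled red circles for the 3 Upf3b-KO libraries. Hox genes, choroid plexus genes and genes of nuclear and brainstem neurons lie far higher in Upf3b-KO, oligodendrocyte genes lie at 15358 to 15475 CPM against 6644 to 6750 CPM, and Purkinje and granule cell genes lie lower.

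No gene of the NMD machinery other than Upf3b passed the 2-fold limit. Of 17 such NMD factor genes none was called, 4 were higher and 7 lower at an adjusted p under 0.01 in edgeR's test, where 5060 and 4760 of all 17785 genes were, and their median log2 fold change was −0.06, with sums of 848 to 853 CPM in Ctrl and 826 to 839 CPM in Upf3b-KO. Upf3a, the paralog of Upf3b, stood at 32.8, 32.2, 33.3 and 33.1 CPM in Ctrl and 30.2, 30.1 and 31.6 CPM in Upf3b-KO, a log2 fold change of −0.15. Upf2, the direct partner of UPF3B, was at 49.3 ± 0.80 CPM (SD, n = 4) and 64.4 ± 1.8 (SD, n = 3), and Smg5, whose product acts on phosphorylated UPF1, at 51.8 ± 2.2 and 65.6 ± 2.6 CPM. The central helicase gene Upf1 was at 76.1 and 75.4 CPM. Of 12 exon junction complex genes none was called, with a median of −0.20, and the core helicase Eif4a3 was at 62.7 and 56.0 CPM.

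Among 22 genes described as NMD targets, Gas5 rose and Atf3 fell, 1 gene each, where 10.3% of all genes rose and 2.86% fell. Gas5, a host gene of small nucleolar RNAs and a classical NMD target, stood at 22.8, 26.1, 23.5 and 23.9 CPM in Ctrl and 49.1, 55.02 and 48.6 CPM in Upf3b-KO, a log2 fold change of 1.03 (SE 0.054, adjusted p 3.88e-12 by edgeR's quasi-likelihood test), close to the 2-fold limit. Another host gene, Snhg12, was at 2.61 and 5.04 CPM, just short of the limit, and Snhg1 was at 4.46 and 4.29 CPM. Of the 22 genes, 5 were higher and 11 lower at an adjusted p under 0.01, where 5060 and 4760 of all 17785 genes were, and the median was −0.13. The stress transcription factor Atf3 is a low gene here, at 1.97 and 0.955 CPM, and its call was lost without Ctrl library 1, Upf3b-KO library 3 or Upf3b-KO library 4.

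Splicing and RNA-binding regulators were examined because many of their RNAs carry poison exons, which bring in an early stop and lead to NMD. Of 29, 25 were lower and 2 higher at an adjusted p under 0.01 in edgeR's test, where 4760 and 5060 of all 17785 genes were, with a median log2 fold change of −0.26, but only Rbm3, a cold-inducible RNA-binding protein gene, passed the 2-fold limit. Rbm3 stood at 233, 237, 232 and 234 CPM in Ctrl and 115, 108 and 116 CPM in Upf3b-KO. The splicing factor Srsf3 was at 325 and 225 CPM, and Srsf9 was at 36.6 and 55.4 CPM. Genes of the integrated stress response, some of which are NMD targets, had a median of −0.39, and 3 of 16 tested fell, where 2.86% of all genes fell. At that p 10 of the 16 were lower and 2 higher, against the same 4760 and 5060 of all genes. Sesn2, a leucine sensor, fell from 43.1 to 17.5 CPM, and Trib3, a pseudokinase gene, from 2.48 to 0.529 CPM, while the regulator Atf4 was at 80.4 and 102 CPM.

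Receptor and channel subunit genes moved unevenly. Of 15 GABA-A receptor subunit genes 6 rose, where 10.3% of all genes rose, and none fell. At an adjusted p under 0.01 in edgeR's test 7 were higher and 7 lower, where 5060 and 4760 of all 17785 genes were. The sum of the list was 3408 and 2410 CPM. Gabra5 stood at 0.550, 0.765, 0.495 and 0.904 CPM in Ctrl and 31.4, 30.3 and 33.2 CPM in Upf3b-KO, and Gabra2 rose from 54.5 to 180 CPM. Of 18 ionotropic glutamate receptor genes 2 rose, Grin2d and Grin3b, near the 10.3% of all genes that rose, and 2 fell, among them Gria1. At that p 10 of the 18 were lower and 4 higher, against the same 4760 and 5060 of all genes. The sum of the 18 was 3482 ± 16 CPM (SD, n = 4) in Ctrl and 2105 ± 18 (SD, n = 3) in Upf3b-KO. Of 32 voltage-gated potassium channel genes 31 were tested and 9 rose, where 10.3% of all genes rose, and none fell. At that p 15 of the 31 were higher and 9 lower, against the same 5060 and 4760 of all genes. The sum of the list was 2571 and 2326 CPM. Kcnc2 rose from 4.02 to 53.9 CPM. Kcng1 had 2 counts in Ctrl and reached 5.30 CPM in Upf3b-KO, a count ratio of 335 with a counting interval of 92.3 to 2776.

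Smaller lists had single members that stood out. Of 19 tested interferon-stimulated genes 1 rose and 2 fell, where 10.3% of all genes rose and 2.86% fell. At an adjusted p under 0.01 in edgeR's test 3 were higher and 5 lower, where 5060 and 4760 of all 17785 genes were. Ifit2 rose from 12.5 to 28.3 CPM, while Ifit3 stood at 24.5, 27.0, 25.6 and 26.7 CPM in Ctrl and 1.23, 1.23 and 1.51 CPM in Upf3b-KO. Ifit3 and Ifit3b share 46.7% of the sequence of Ifit3, and their sum was 44.1 and 3.99 CPM, so it was lower however the reads were divided. Of 17 tested immediate early genes, which mark neuronal activity, 4 rose, where 10.3% of all genes rose, among them Fos from 5.73 to 18.7 CPM and Arc from 17.7 to 41.6 CPM, and none fell. At that p 7 of the 17 were higher and 4 lower, against the same 5060 and 4760 of all genes. Jun, among the lower, was at 77.4 and 52.6 CPM, and the list median was 0.05. Of 17 tested spermatogenesis genes 9 rose, where 10.3% of all genes rose. These 9 were at 0.0337 to 0.349 CPM in Ctrl, close to or below the filter on low counts, and Prm2, at 3.11 CPM, was the highest of them in Upf3b-KO. The synaptonemal complex gene Sycp1 fell from 28.4 to 9.53 CPM. Of 13 tested forebrain neuron genes 3 rose, where 10.3% of all genes rose, among them the dopamine receptor gene Drd2 from 0.0644 to 5.01 CPM, and Neurod2 fell from 81.8 to 41.5 CPM. At that p 4 of the 13 were higher and 4 lower, against the same counts of all genes, and the sum of the list was 518 and 417 CPM.

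For a set of strongly changed genes the level is uncertain because near-identical copies share reads. Gm8797, a ubiquitin pseudogene (chromosome 3, 5815866 to 5816355), was at 3.997 and 207 CPM. Its sequence recurs for 84.1% in Ubb and in other Ubb pseudogenes, and the sum over these copies was 2602 CPM in Ctrl and 2273 CPM in Upf3b-KO. Gm16867 (chromosome 14, 69600722 to 69740969) had 13.0, 10.4, 13.0 and 10.3 CPM in Ctrl and 0 counts in Upf3b-KO, at least 125.9-fold lower, and Gm27177 (chromosome 14, 69819613 to 69920735) was at 11.1 and 0.357 CPM. They share most of their sequence with each other and 23.4% to 25.2% of it with Entpd4 and Entpd4b. The sum over these genes was 179 and 113 CPM. Gm17167 (chromosome 4, 42206998 to 42235313) was at 18.3 and 0.265 CPM and the chemokine gene Ccl21f (chromosome 4, 42114817 to 42115917) at 10.7 and 0.258 CPM. The sums with their copies were 41.0 and 7.87 CPM for Gm17167 and 12.2 and 0.258 CPM for Ccl21f, so the falls in these families remained after summing.

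Genes near Upf3b were examined because genes linked to a mutated locus can differ along with it. Within 5 Mb, 31 genes were tested, of which 2 rose and 1 fell, no larger a share than the 10.3% of all genes that rose and not far from the 2.86% that fell, with a median log2 fold change of −0.10. Zcchc12, a zinc finger gene 892 kb away, stood at 12.4, 11.7, 14.9 and 12.2 CPM in Ctrl and 82.1, 85.8 and 81.5 CPM in Upf3b-KO. Akap14, 40 kb away, had 0 counts in Ctrl and 45 counts over the Upf3b-KO libraries, and Gm14569 fell from 3.36 to 0.75 CPM.

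Transcripts were tested next, because a change of isoform need not move the level of its gene. Of 44388 transcripts, 1533 rose (3.45%) and 580 fell (1.31%). Without Upf3b-KO library 2, 3 or 4, 947, 923 and 921 rose, and DESeq2 called 4188 transcripts in all against 2113 here. Within genes, the share of each transcript was computed from counts per length and tested with edgeR's test for differential transcript use. Of 25579 transcripts in 8845 genes, 143 (0.559%) changed by at least 10 percentage points at an adjusted p under 0.01, in 118 genes. With the shallow library added 60 shares were called, and limma's test called 602. In 99 of the 118 genes the level of the gene was not called changed, near the 15446 of all 17785 tested genes. Of the 143, 82 gained and 61 lost share. The lists of choroid plexus, oligodendrocyte and brainstem genes moved with genotype in the same libraries, and their part in the isoform shares was not tested.

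In 20 genes 1 isoform gained and another lost share, and the 8 with the smallest p are given. In Fis1, whose product takes part in mitochondrial fission, Fis1-202 held 15.3%, 13.4%, 14.9% and 14.6% of the gene in Ctrl and 48.4%, 44.1% and 49.7% in Upf3b-KO. Fis1-201 held 82.3% to 85.2% in Ctrl and 48.3% to 55.1% in Upf3b-KO, so neither isoform overlapped between the genotypes. Fis1-202 starts 8830 nt further upstream, and the coding regions of 438 and 459 nt (stop codon included) begin differently. Their first 30 bases are shown because the switch changes the start of the protein, with the start codon in capitals, from GENCODE M39 transcripts (GRCm39, chromosome 5, plus strand).
Fis1-202: ATGcccagagacgaagctgcaaggaatttt
Fis1-201: ATGgaggccgtgctgaacgagctggtgtct

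Tmed10 encodes a cargo receptor of early secretory traffic. Its coding transcript Tmed10-201 held 63.0%, 64.9%, 64.7% and 63.7% in Ctrl and 87.1%, 86.5% and 87.9% in Upf3b-KO. The retained-intron transcript Tmed10-202 held 35.1% ± 1.0 (SD, n = 4) and 12.0% ± 0.44 (SD, n = 3). The adjusted p-values of edgeR's test were 3.45e-06 and 2.95e-08, while the summed level of the gene was close in the genotypes, at 139 and 130 CPM.

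Ndrg2, a gene of astrocytes, differed between its leading isoforms by a single exon. Ndrg2-201 holds an exon of 42 nt at chr14:52148543-52148584 (GRCm39, minus strand), and the rest of Ndrg2-201 is the same as Ndrg2-202. Ndrg2-201 held 26.1%, 29.1%, 27.2% and 24.4% in Ctrl and 44.4%, 45.9% and 44.0% in Upf3b-KO. Ndrg2-202 held 68.9% ± 1.2 (SD, n = 4) and 50.5% ± 1.7 (SD, n = 3). Kcnma1, the BK potassium channel, showed the same kind of exchange. Kcnma1-205, with an exon of 81 nt at chr14:23386108-23386188 (minus strand), had no counts in Ctrl and held 21.7%, 14.5% and 20.5% in Upf3b-KO, whereas Kcnma1-201, which lacks it and has an exon of 9 nt at chr14:23437160-23437168, held 19.97% ± 1.9 in Ctrl and 0.582% ± 1.0 in Upf3b-KO. The first 30 bases of the 42 and 81 nt exons are shown because the 42 nt exon is the difference between the Ndrg2 isoforms and the 81 nt exon is the longer of those that differ between the Kcnma1 isoforms.
Ndrg2-201 exon: gaggccgagttagctgcccgcatcctcctg
Kcnma1-205 exon: ctaagccgggcaagttgcctttggtatcag

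Rtn4, the Nogo gene, is expressed as a long isoform with a large central exon and as short isoforms. Rtn4-203, which has the exon of 2361 nt (chr11:29656410-29658770, plus strand), held 15.04% ± 1.5 (SD, n = 4) in Ctrl and 29.0% ± 1.5 (SD, n = 3) in Upf3b-KO. The short Rtn4-201, with a coding region of 600 nt against 3141 nt, held 74.2% ± 0.57 and 53.3% ± 1.1. Of the sequence of the gene, 16.3% is shared with Eml6. In Kcnab1, a beta subunit of potassium channels, the coding Kcnab1-201 held 22.5% ± 2.1 in Ctrl and 50.3% ± 3.5 in Upf3b-KO, and Kcnab1-204, for which no coding region is annotated, 69.0% ± 1.9 and 44.5% ± 3.8. In Pnkd, the gene of a paroxysmal dyskinesia, the long isoform Pnkd-201 held 32.6% ± 4.5 and 66.8% ± 3.3, and Pnkd-202, which starts 48121 nt downstream, 32.2% ± 2.8 and 10.8% ± 2.2. In Fis1, Rtn4, Kcnab1 and Pnkd the isoforms that exchanged share have different annotated starts, whereas those of Ndrg2 and Kcnma1 share theirs. With the shallow library added, the shares of Fis1-201, Kcnab1-204, Pnkd-201 and both isoforms of Ndrg2 and Rtn4 missed the threshold, and under limma's test Kcnma1-201 did.

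**Figure D4:**
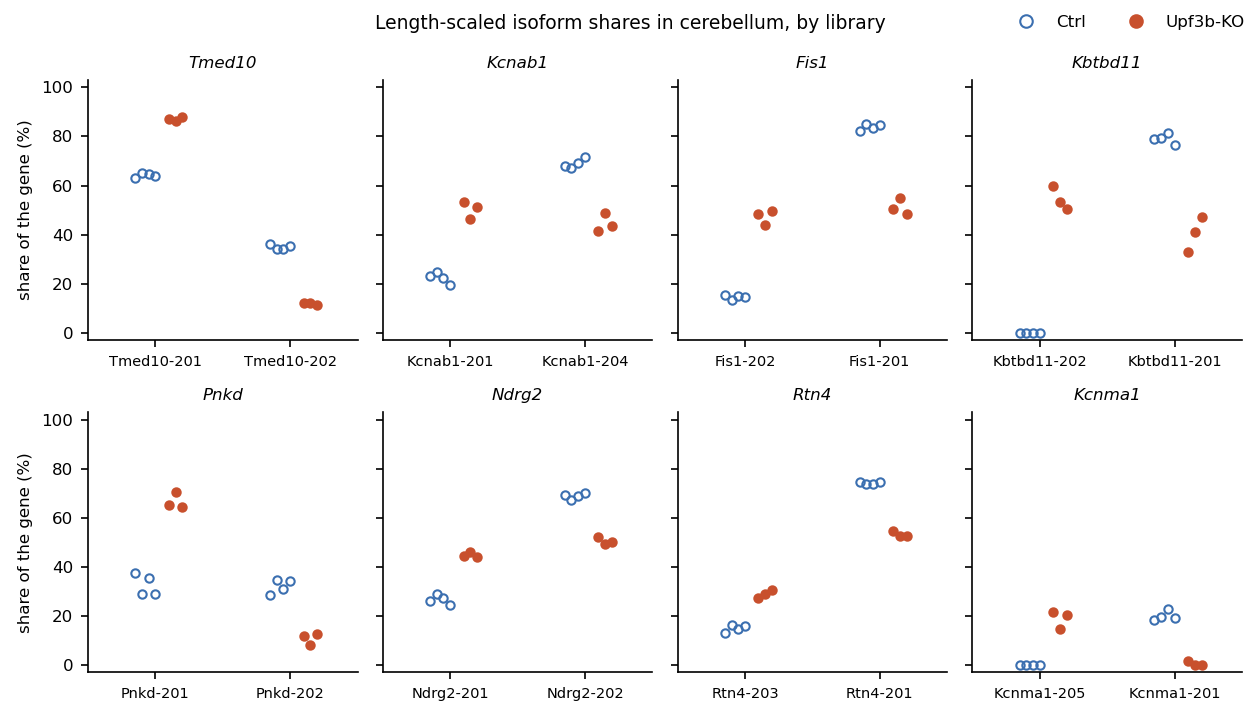
Share of the gene held by the isoform that gained (left) and the isoform that lost (right) in 8 genes, in percent of the length-scaled counts of the gene, for each Ctrl library (open blue) and each Upf3b-KO library (filled red). In each of the 16 isoforms the genotypes do not overlap, and Kbtbd11-202 and Kcnma1-205 are at 0 in all 4 Ctrl libraries.

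Transcripts with a dEJ were examined because these are the transcripts that NMD is known to degrade. A transcript was counted as having a dEJ if 50 nt or more separated its annotated stop from its last junction. Of 2875 tested transcripts with a dEJ, 94 rose (3.27%) and 16 fell (0.557%), and of 26190 with a complete coding end and no dEJ, 1158 rose (4.42%) and 378 fell (1.44%). The share of transcripts that rose was thus no higher with a dEJ, near the 3.45% of all transcripts. The transcripts that rose differed in their genes. The gene itself had not risen for 63 of the 94 with a dEJ (67%) and for 217 of the 1158 without (18.7%). The median log2 fold change was 0.24 with a dEJ and 0.04 without, and 62.8% of transcripts with a dEJ and 52.95% of those without were higher. Within the 2110 genes that had both kinds, the dEJ transcripts were higher relative to the others in 63.3%, by a median of 0.24. Of 1947 dEJ transcripts tested for share 11 gained and 0 lost 10 points, where 82 gained and 61 lost among all 25579. The 110 dEJ calls were sensitive to single libraries, with 60, 62 and 53 without Upf3b-KO library 2, 3 or 4, and DESeq2 made 270. The part of the cell type lists in these calls was not tested.

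The 8 dEJ transcripts with the smallest p whose gene had not risen are given in turn, and the last 27 coding bases of each are shown with the stop codon in capitals, because the position of that stop is what makes them candidates for NMD. The sequences come from GENCODE M39 transcripts on GRCm39. The stop codons lie at chr17:34335291-34335293 (minus strand) for Brd2-207, chr7:65720341-65720343 (plus) for Snrpa1-201, chr1:134280873-134280875 (minus) for Tmem183a-205 and chr8:15079302-15079304 (plus) for Kbtbd11-202. They lie at chr1:92569458-92569460 (minus) for Cops9-204, chr11:117905511-117905513 (plus) for Pgs1-201, chr4:108990976-108990978 (minus) for Osbpl9-211 and chr2:174127226-174127228 (plus) for Gnas-211.
Brd2-207: catccccagaggattatcacaaaattaTAA
Snrpa1-201: gactttcagaaagtgaaactcaaatttTAA
Tmem183a-205: actcccagcacactgaagaattccaaaTAG
Kbtbd11-202: ccggaccgcggggagcagggtgcagtcTAG
Cops9-204: cagtcgcagggcccgcgactgttaacgTGA
Pgs1-201: gggacctggaagcccagattgccatcgTGA
Osbpl9-211: acgagcgagagaagtggatccatgcctTAG
Gnas-211: aaggggcccatccccatccggcgtcacTAA

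Brd2 encodes a bromodomain regulator of transcription. Brd2-207 stood at 34.3, 31.6, 33.2 and 36.5 CPM in Ctrl and 107, 101 and 110 CPM in Upf3b-KO, a log2 fold change of 1.65 (SE 0.054, adjusted p 1.95e-06 by edgeR's quasi-likelihood test). Its stop codon is in exon 5 of 14, with 9 junctions after it. The whole gene was at 167 and 326 CPM, a log2 fold change of 0.91, so the level of the gene moved in the same direction below the 2-fold limit.

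Snrpa1 encodes a protein of the U2 splicing particle. Snrpa1-201 stood at 10.2, 10.4, 10.2 and 9.26 CPM in Ctrl and 30.8, 32.7 and 30.01 CPM in Upf3b-KO, and its share of the gene was 44.5% ± 1.9 (SD, n = 4) and 74.7% ± 3.5 (SD, n = 3). The stop lies in exon 6 of 8, 164 nt before the last junction. Snrpa1 as a whole was at 30.1 and 48.2 CPM, higher but below the 2-fold limit. Tmem183a-205 stood at 5.81, 6.35, 4.13 and 4.99 CPM in Ctrl and 24.6, 25.3 and 25.2 CPM in Upf3b-KO. It took 9.71% ± 1.7 and 25.2% ± 0.36 of its gene, and 3 junctions follow its stop. Tmem183a as a whole was at 95.6 and 164 CPM, also higher below that limit.

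Kbtbd11-202 and Osbpl9-211 had no counts in Ctrl. Kbtbd11-202 reached 21.3, 20.1 and 17.7 CPM in Upf3b-KO, at least 205.9-fold higher, although the gene as a whole fell from 84.0 to 37.7 CPM. Its coding region is identical to that of Kbtbd11-201, and the junction lies 3204 nt after the stop, in the 3′ untranslated region. Kbtbd11-201 held 79.0% ± 2.0 of the gene in Ctrl and 40.4% ± 7.1 in Upf3b-KO, where Kbtbd11-202 took 54.6% ± 4.8. The gene shares 24% of its sequence with Gm37844, so part of its level is uncertain. Osbpl9-211, from a gene of lipid transfer, reached 9.42, 8.90 and 11.3 CPM, at least 103.2-fold higher, with a stop in exon 3 of 23 and 20 junctions after it, while the gene was at 106 and 112 CPM.

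Cops9-204, from a gene of the COP9 signalosome, was at 8.14 ± 0.31 CPM (SD, n = 4) in Ctrl and 22.0 ± 2.6 (SD, n = 3) in Upf3b-KO. Its gene was at 60.7 and 94.7 CPM. Pgs1-201, from the gene of an enzyme on the path to cardiolipin, was at 30.4 ± 3.3 and 67.1 ± 1.8 CPM. It held 68.7% and 73.6% of its gene, so its rise went with that of the gene, at 48.3 and 98.3 CPM. Gnas-211 is the form of the imprinted Gnas locus whose coding region ends before most exons of the G protein alpha subunit, known as Nesp55. It stood at 0.291, 0.413, 0.518 and 1.10 CPM in Ctrl and 16.1, 14.8 and 17.5 CPM in Upf3b-KO, and it held only 0.614% of the gene there. The whole gene was at 1080 and 1524 CPM. The type of Gnas-211 is annotated as protein coding, unlike the other 7, which are annotated as targets of nonsense-mediated decay.

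**Figure D5:**
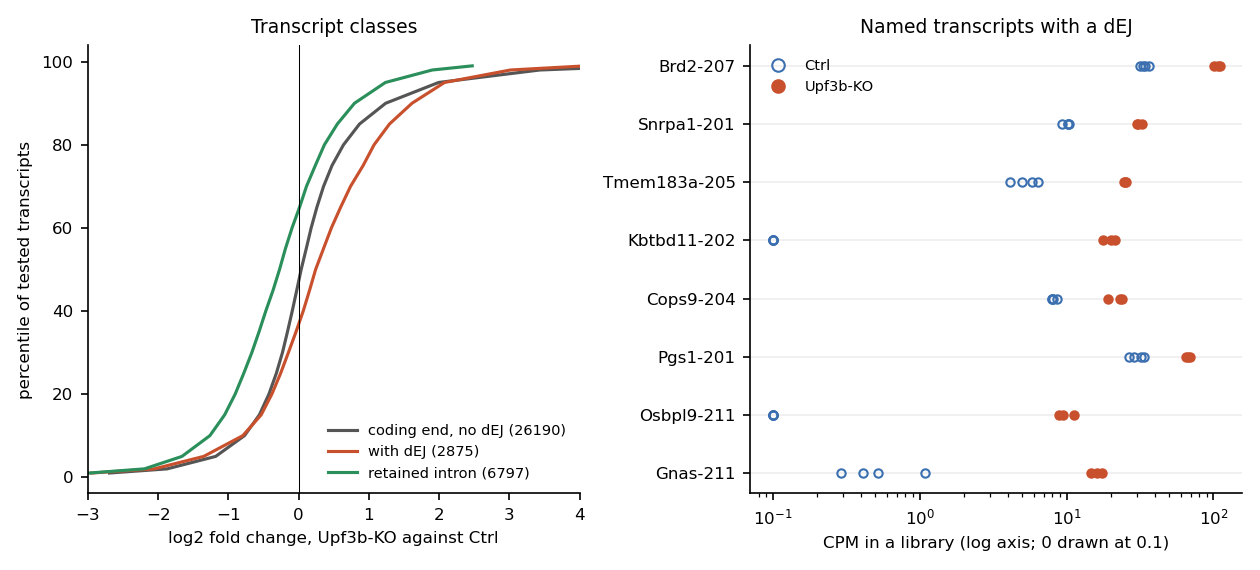
Left, the percentiles of log2 fold change for tested transcripts with a coding end and no dEJ (grey, 26190), with a dEJ (red, 2875) and with a retained intron (green, 6797). Right, the level of the 8 named dEJ transcripts in each library (CPM on a log axis, 0 drawn at 0.1), where the 3 Upf3b-KO libraries (filled red) lie above the 4 Ctrl libraries (open blue) for each of them.

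Retained-intron transcripts were lower by the median, while few were called. Of 6797 tested, 58 rose (0.853%, where 3.45% of all transcripts rose) and 87 fell (1.28%, close to the 1.31% of all), with a median log2 fold change of −0.27, and within the 4225 genes that had both kinds the retained-intron transcripts were lower relative to the others in 66.4%. Tmed10-202 was the clearest of them in isoform share. Of 508 genes of the annotation class TEC, which holds mostly unspliced gene models awaiting experiment, 12 rose and 73 fell (14.4%), with a median of −0.55, where 2.86% of all genes fell. Of 1575 genes of long non-coding RNAs 221 rose (14%, where 10.3% of all genes rose) and 96 fell (6.1%, where 2.86% fell).

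Frontal cortex was used to see which cerebellar differences were of another size there, with the tissue by genotype interaction tested over 15 libraries and adjusted over all genes. The study describes both regions as taken from a single set of mice. The fit did not pair them, since the labels do not tie a library to an animal. Of 19831 genes in that fit, 6.36% had an interaction of over 2-fold at an adjusted p under 0.01 that was more positive in cerebellum and 3.04% one that was more negative. Of the 29 genes named by rank, which were chosen for their change in cerebellum, 10 and 5 did, a count from which nothing is read. Purkinje cell genes belonged to the latter, with Car8 at −1.57 in cerebellum and 0.56 in frontal cortex and Itpr1 at −1.22 and 0.26 on the log2 scale. Nefl was at 1.77 and −0.43 and Slc6a11 at 2.53 and −0.42, so both rose in cerebellum and were lower in frontal cortex. Lamp5 had 7.88 and 0.46, and in frontal cortex it stood at 142 CPM in Upf3b-KO.

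Other large cerebellar differences were present in frontal cortex too. Enpp2 had log2 fold changes of 3.45 in cerebellum and 3.63 in frontal cortex, and Ttr had 9.15 and 7.79, from 7.94 to 1848 CPM in frontal cortex. Upf3b had −4.97 and −4.79, with an interaction of −0.19 (SE 0.28, adjusted p 0.629 by edgeR's quasi-likelihood test). Gm8797, Gm17167, Ccl21f and Gm27177 had interactions between −0.88 and 0.33, none of them called. Hoxb5, by contrast, had 0 counts in frontal cortex Ctrl and 0.0149 CPM in Upf3b-KO, too little for the interaction to be tested with any precision (SE 88.3).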

How the data were processed

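Total RNA was extracted with a column kit, ribosomal RNA was depleted, and libraries were made with a SMART-Seq kit and sequenced as read pairs. Per the labels and the study's methods, the authors aligned reads with STAR 2.5.2b to GRCm39 (Ensembl release 105) and estimated transcripts with RSEM. The deposited values are the authors' expected counts per transcript, not scaled for depth or length. RSEM divides reads among similar transcripts, and whether strand was used is not stated, so overlapping genes and near copies are uncertain. The strand, trimming and multi-mapping settings are not given in the sources used here. Libraries used held 27660078 to 35238677 counts, so that 3 counts, taken as the floor, equal 0.0851 to 0.108 CPM. Intervals and floors cover counting error only (95% confidence, exact).

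Of 142435 transcripts, 141102 matched GENCODE M39 by identifier and 1333 did not. That release is later than the authors' annotation. No column was without a sample (0). Expected counts were rounded, summed per gene, filtered (filterByExpr, minimum count 10, minimum total 15) and fitted without covariates with edgeR 4.0.16 and limma 3.58.1 in R 4.3.3 (TMM, quasi-likelihood F test, Benjamini-Hochberg over all tested features). The study's methods use DESeq2 for genes with the same thresholds. Its EBSeq and IsoformSwitchAnalyzeR were not run, and edgeR's diffSpliceDGE tested isoform use among transcripts holding at least 5% of a gene in a genotype. CPM refers to the library total, so log2 ratios of CPM exceed the fitted log2 fold changes by a median of 0.05. The interaction used all 15 libraries over the depth limit of 1000000 counts and did not pair the regions by animal. Near copies were genes sharing at least 10% of their 50-nt words.

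Named genes were the 10 in each direction with the smallest p and the 5 with the largest fold among called genes averaging 5 CPM or more (29 in all). Named isoforms were pairs in 8 coding genes of at least 10 CPM with the smallest gene-level p, and named dEJ transcripts the 8 with the smallest p among those that rose to at least 2 CPM without their gene being called up. Genes of lists were given by counts, with examples of small p or of textbook role. A few of these genes are not reported here. Members and lists were chosen with earlier results of these data known. Fits were tested on simulated data. Alternatives were DESeq2 1.42.0, median-of-ratios scaling, other filters, folds and p limits, glmTreat, the shallow library, a replicate block, limma's diffSplice and leaving out each library.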

Additional observations from a re-analysis of the deposited data

Results flagged for a closer look

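The changes of some genes of neurons, glia and choroid plexus differed between regions. The interaction of genotype with region (log2, cerebellum minus frontal cortex, edgeR's quasi-likelihood test over 15 libraries) passed an adjusted p under 0.01 and 2-fold for 15 of the 29 named genes, which were chosen for their change in cerebellum, and for 6.36% of all 19831 genes in the positive and 3.04% in the negative direction. The change was more positive in cerebellum for Ttr at 1.35, Mobp at 1.01, Nefm at 2.03, Nefl at 2.19, Slc6a11 at 2.95, Slc17a6 at 4.18 and Lamp5 at 7.41. Of these, Ttr and Lamp5 were at only 2.05 and 0.51 CPM in cerebellum Ctrl. The cholinergic genes Chat and Slc18a3 had interactions of 7.68 and 9.79 and Chodl of 9.52, and all 3 rest on Ctrl levels at or near 0 in cerebellum, so the sizes depend on the fit. The change was more negative in cerebellum for the Purkinje cell genes Car8 at −2.14, Rgs8 at −1.93, Itpr1 at −1.49 and Calb1 at −1.40, and for Ctxn3 at −3.33. Car8 was at 15.3 ± 1.5 CPM (SD, n = 4) in frontal cortex Ctrl, far below its 3198 ± 27 CPM in cerebellum Ctrl.

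The shallow Upf3b-KO library 1, which was fitted only as an alternative, held 221 counts of choroid plexus genes, equal to 3401 CPM (95% counting interval 2967 to 3880). Its oligodendrocyte genes summed to 15204 CPM (14271 to 16183) and its genes of nuclear, brainstem and midbrain neurons to 2816 CPM (2423 to 3255). The other 3 Upf3b-KO libraries lie inside these intervals for the 3 lists, and all Ctrl libraries lie below them. The Hox list did not match. It had 0 counts there, which allows up to 56.8 CPM, below the 87.1 to 96.1 CPM of the other 3 Upf3b-KO libraries.

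Of 57 sets of 4 Ctrl values examined for a sample apart from the rest, 2 had one, and chance gives about 1 in 20. Ctrl library 1 had 6049 CPM of granule cell genes against 6028 to 6030 CPM in the others, and Ctrl library 4 had 0.542 CPM of Hox genes against 0.231 to 0.265 CPM.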

How the results depend on the processing

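Gene calls were steadier than transcript calls. The 2339 genes became 739 at a mean of 5 CPM or more, 4049 at 1.5-fold, 11453 at an adjusted p under 0.05 without a fold limit and 1281 under glmTreat, and no called gene changed direction under any alternative. DESeq2 gave 2323, of which 2301 were calls of edgeR too, and leaving out 1 library gave 2210 to 2294. The 2113 transcripts became 4188 by DESeq2, 1103, 3581, 10028 and 528 under those 4 settings, 977 with the shallow library and 1354 to 1767 with 1 library left out. The 143 isoform shares became 602 by limma, 66 at 20 points, 60 with the shallow library and 107 to 139 with 1 library left out. The 110 dEJ transcripts became 270 by DESeq2, 381 at an adjusted p under 0.05, 35 with the shallow library and 53 to 89 with 1 library left out. Upf3b kept its call throughout, at −5.23 to −4.85.

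Replicate numbers were not found to pair the libraries, since same-numbered Upf3b-KO and Ctrl libraries correlated at 0.0059, 0.0447 and 0.0641 in their deviations and Upf3b-KO 2 was closest to Ctrl 4. A replicate block over libraries 2 to 4 gave 2177 genes, 582 transcripts, 50 isoform shares and 18 dEJ transcripts, and under it Kbtbd11-202, Cops9-204, Osbpl9-211 and the shares of Kbtbd11-201, Ndrg2-202, Kcnma1-201 and Kcnma1-205 missed the threshold. With the shallow library 7 named isoform shares missed it, in Kcnab1, Fis1, Pnkd, Ndrg2 and Rtn4. The cause was not tested.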
